A study of Mus musculus with 11 samples.

Results

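The genes described here encode voltage-gated sodium channels (Scn), voltage-gated calcium channels and their auxiliary subunits (Cacn), hyperpolarization-activated HCN channels and the TRPC, TRPM and TRPV groups of transient receptor potential channels. They were taken by symbol from the deposited gene table, without antisense transcripts, which gave 65 of 48709 gene IDs. The symbol pattern also takes in Trpc4ap, a protein that binds TRPC4 and is no channel itself, so 64 of the 65 are channel subunits or close relatives. Primary mouse hippocampal neurons were cultured for 10 days at 20% O2 and then either moved to 1% O2 for 4 h (hypoxia 1 to 5, n = 5) or left at 20% O2 (control 1 to 6, n = 6), the controls coming from the same isolation. The labels name no transgene, drug, strain, sex or age of the animals. Polyadenylated RNA was sequenced as single-end reads, with total counts per library from 16619493 (control 1) to 31917157 (hypoxia 5). The second principal component (18.2% of the variance) placed control 1 at one end and control 5 and hypoxia 5 at the other. The labels do not say whether the libraries of a group came from separate cultures, so p-values measure the spread between these libraries, which may be technical.

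Voltage-gated sodium channels carry the rising phase of the action potential and are built from a pore-forming α subunit with β subunits that adjust gating and surface expression. Voltage-gated calcium channels couple depolarization to transmitter release and gene regulation, and combine an α1 pore with α2δ and β subunits that control trafficking and gating. The γ proteins include a calcium channel subunit of muscle, while most brain γ proteins are auxiliary subunits of AMPA receptors. HCN channels carry the cyclic nucleotide-sensitive pacemaker current of dendrites and the sinus node, and TRP channels are cation channels opened by lipids, temperature, ions or receptor signalling.

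Of the 65 genes, 55 had at least 10 raw counts in at least 5 libraries and were tested. Each was tested with edgeR's quasi-likelihood test in 1 fit of all 16319 genes that passed this filter. Benjamini-Hochberg adjustment ran over all of them, and the threshold for a call was an adjusted p of 0.05. Of the 55 genes, 4 were higher and 2 were lower after hypoxia, which is 10.9%, against 23.0% of all genes tested. Without Trpc4ap it was 5 of 54 genes (9.26%). Among all genes 10.2% were higher and 12.8% were lower, so that 44.4% of all calls were higher, against 49.9% with DESeq2 size factors and 51.3% with the DESeq2 Wald test. The higher genes were Cacna2d3, Cacnb2, Cacng4 and Trpc4ap, and the lower genes were Scn3a and Cacnb4. The largest of these differences, that of Cacnb4, was 1.19-fold. The libraries of the groups did not overlap for 3 of the 55 genes (Scn3a, Cacna2d3 and Trpc4ap), against 14.0% of all genes tested.

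The 10 genes that did not reach the filter were Scn4a, Scn10a, Scn11a, Cacna1s, Cacng1, Cacng6, Trpc2, Trpm1, Trpv4 and Trpv5. Several of these are known from muscle (Scn4a, Cacna1s, Cacng1) or sensory neurons (Scn10a, Scn11a). Trpc2, known from the vomeronasal organ, had no count in any of the 11 libraries. Just outside the filter, Cacng6 had 10 or more counts in 3 libraries, with means of 0.344 CPM (read counts scaled to the same library total in every library) in control and 0.174 CPM in hypoxia, and Cacng1 reached 10 counts in 1 library. Just inside it, Trpv1 and Trpm6 had 10 or more counts in 5 libraries each.

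**Figure D1:**
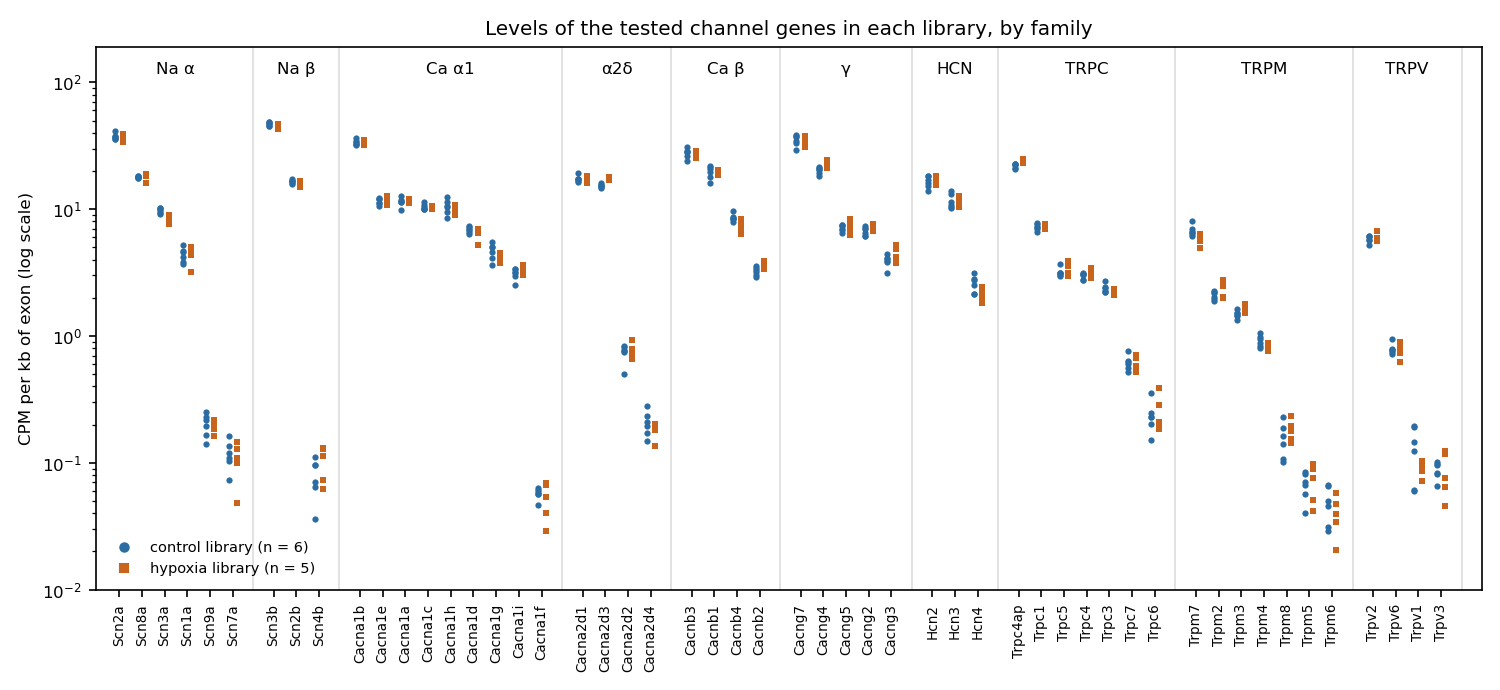
Level of 52 tested genes in CPM per kilobase of exon, on a log axis, by channel family, with control and hypoxia libraries as separate points. Scn3b, Scn2a, Cacng7 and Cacna1b stand highest of those drawn, and the control and hypoxia points of a gene lie close together compared with the differences between genes.

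Among the pore-forming sodium channel genes, 1 of the 7 tested was called, and it was lower. Scn2a, which encodes Nav1.2, stood highest per exon length, at 37.5 ± 2.02 CPM per kb in control (SD, n = 6). Scn8a (Nav1.6) followed at 17.9 ± 0.265 CPM per kb, then Scn3a (Nav1.3) at 9.78 ± 0.450 CPM per kb and Scn1a (Nav1.1) at 4.35 ± 0.573 CPM per kb. The control ranges of these 4 neighbours in the order were separated by far more than their SDs. Scn9a and Scn7a were at 0.200 and 0.117 CPM per kb.

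Scn3a (ENSMUSG00000057182, mm10 chromosome 2, 65457118 to 65567627, minus strand) encodes Nav1.3, a sodium channel best known from the embryonic and early postnatal brain. Its control libraries ranged from 115 to 127 CPM with a median of 123 CPM, and the hypoxia libraries 1 to 5 had 104, 108, 111, 112 and 95.5 CPM. Every hypoxia library was below every control library. The means were 122 ± 5.61 CPM (control; SD, n = 6) and 106 ± 6.60 CPM (hypoxia; SD, n = 5), which corresponds to a log2 fold change of -0.20 (SE 0.05, edgeR adjusted p = 0.00484).

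Scn2a, the next gene on chromosome 2, 53.1 kb from Scn3a, had 455 to 527 CPM in control (median 472 CPM) and 467, 489, 499, 493 and 433 CPM in hypoxia 1 to 5. Its groups overlapped, with a log2 fold change of -0.0023 (95% interval -0.10 to 0.09). The count ratio of Scn3a to Scn2a within each library, which does not depend on library size, was 0.240 to 0.279 in control and 0.220 to 0.226 in hypoxia, without overlap. That ratio was chosen after its values were seen and is given without a test. Scn3a made up 14.0% ± 0.545 of the summed per-length level of the sodium α genes in control and 12.4% ± 0.196 in hypoxia. Of the 50-base stretches in the Scn3a exons, 6.49% also occur in other genes, and 5.76% of those of Scn2a do. Which genes share them was not recorded, and a part of the reads of Scn3a and Scn2a could have been assigned to another gene.

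None of the 4 sodium channel β subunit genes was called. Scn3b stood highest per exon length, at 47.1 ± 1.57 CPM per kb in control, Scn2b was at 16.5 ± 0.494 CPM per kb and Scn4b had 0.0791 ± 0.0274 CPM per kb. Scn3b, a β subunit abundant in brain, had 247 to 267 CPM in control (median 259 CPM). In hypoxia 1 to 5 it had 250, 251, 236, 248 and 257 CPM, within or below the control range, with a log2 fold change of -0.05 (edgeR adjusted p = 0.324).

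Of the 9 pore-forming α1 genes of the calcium channels tested, none was called. Cacna1b (Cav2.2, the N-type channel of presynaptic terminals) stood highest at 33.7 CPM per kb in control and 34.3 ± 1.38 CPM per kb in hypoxia (SD, n = 5). Cacna1e (Cav2.3, R-type), Cacna1a (Cav2.1, P/Q-type), Cacna1h (Cav3.2, T-type) and Cacna1c (Cav1.2, L-type) followed at 11.5, 11.4, 10.5 and 10.4 CPM per kb, with SDs of 0.625, 0.866, 1.40 and 0.529 CPM per kb. In this order each gene differed from the next by less than the larger SD of the pair. Cacna1d (Cav1.3), Cacna1g (Cav3.1) and Cacna1i (Cav3.3) followed at 6.90, 4.67 and 3.09 CPM per kb. Cacna1f, a channel best known from the retina, had 0.0572 CPM per kb.

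Cacna1b had 320 to 359 CPM in control (median 332 CPM) and 352, 342, 351, 341 and 318 CPM in hypoxia 1 to 5, and the groups overlapped (log2 fold change 0.02, SE 0.04, edgeR adjusted p = 0.713). Cacna1g, a low-voltage-activated channel of burst firing, had 36.7 to 56.3 CPM in control (median 49.0 CPM) and 45.7, 42.3, 39.6, 37.9 and 39.5 CPM in hypoxia 1 to 5. Every hypoxia value of Cacna1g was inside the control range. The log2 fold change of -0.21 (SE 0.09) did not pass the test (edgeR adjusted p = 0.0891). Without control 1 it did (adjusted p = 0.00964).

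Cacna2d3 showed the smallest adjusted p of the 55 genes and is 1 of the 4 α2δ subunit genes, which raise the surface expression of calcium channels and are the family of the gabapentin-binding proteins. The other 3 were not called. Cacna2d3 (ENSMUSG00000021991, mm10 chromosome 14, 28904943 to 29721864, minus strand) spans 817 kb, and its control libraries ranged from 128 to 140 CPM (median 134 CPM). The hypoxia libraries 1 to 5 had 154, 156, 150, 149 and 154 CPM, all above every control library. Cacna2d3 averaged 133 ± 4.14 CPM in control and 153 ± 2.93 CPM in hypoxia, with a log2 fold change of 0.20 (SE 0.03, edgeR adjusted p = 0.000386), or 1.15-fold.

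Cacna2d1, the α2δ gene with the highest level per exon length in control (17.3 ± 0.989 CPM per kb, against 15.3 ± 0.475 CPM per kb for Cacna2d3), had 205 to 239 CPM in control (median 213 CPM) and 203, 211, 224, 226 and 201 CPM in hypoxia 1 to 5. Its log2 fold change was -0.02 (edgeR adjusted p = 0.839). Cacna2d3 held 45.6% ± 1.58 of the summed per-length level of the 4 α2δ genes in control and 49.3% ± 1.57 in hypoxia, and Cacna2d1 51.6% ± 1.80 and 48.1% ± 1.83. The order of the 2 genes by mean share therefore differed between control and hypoxia, but their mean shares in hypoxia differed by less than either SD. The count ratio of Cacna2d3 to Cacna2d1 was 0.552 to 0.681 in control and 0.662 to 0.770 in hypoxia, overlapping through control 3.

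The stretch upstream of the annotated start of Cacna2d3 and of Cacnb4, which among the called genes have the smallest adjusted p and the largest decrease, is shown to give the sequence context of both. The sequences run 5′ to 3′ on the gene's strand from RefSeq, build GRCm38.p6: chr14:29721865-29722114 (minus strand) for Cacna2d3, and chr2:52558612-52558861 (minus strand), upstream of a start inside the gene, for Cacnb4. Capitals mark ACGTG or GCGTG on either strand, the core bound by hypoxia-inducible factors.
Cacna2d3: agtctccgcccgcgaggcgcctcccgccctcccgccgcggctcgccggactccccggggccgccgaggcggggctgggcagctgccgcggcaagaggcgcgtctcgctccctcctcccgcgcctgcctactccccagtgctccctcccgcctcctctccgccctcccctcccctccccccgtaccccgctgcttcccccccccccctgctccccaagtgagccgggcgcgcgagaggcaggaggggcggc
Cacnb4: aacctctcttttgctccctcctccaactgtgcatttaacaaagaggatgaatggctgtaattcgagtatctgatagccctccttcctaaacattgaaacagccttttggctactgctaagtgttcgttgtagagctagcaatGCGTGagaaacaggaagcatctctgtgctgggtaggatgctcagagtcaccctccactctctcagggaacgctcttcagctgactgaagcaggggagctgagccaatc
The Cacna2d3 window holds no match and 80.0% G or C, and the Cacnb4 window shown holds 1 GCGTG and 48.8% G or C. It is 1 of 3 Cacnb4 windows, shown because it alone overlaps no annotated exon: that of the outer start (chr2:52676144-52676393) holds no match and 79.6% G or C, and the other holds 1 match, read as CACGC on the gene's strand, and 71.2% G or C. Of the other called genes, Trpc4ap (higher) has 2 matches in its window, both read as CACGC on the gene's strand. Cacnb2 (higher) has 1 match, read as CACGC, in the window of the outer start and 0 in that of an inner start. Scn3a and Cacng4 had no entry. RefSeq entries were found for 51 of the 65 genes, in 66 windows of 250 bases. ACGTG or GCGTG occurred in 31 of the 66 windows (47.0%) and in 38.6% of all 32851 windows. By motif, ACGTG occurred in 12.1% of the 66 windows and 16.6% of all, GCGTG in 39.4% and 28.2%, and the cyclic AMP response element TGACGTCA in none of the 66 and 1.5% of all. A match is a description of the letters and not evidence of binding.

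The β subunits, which bind the α1 pore inside the cell and promote its export to the membrane, gave 1 higher and 1 lower gene of 4. Cacnb3 had the highest level per exon length, at 27.8 ± 2.33 CPM per kb in control, followed by Cacnb1 (19.6 ± 2.25), Cacnb4 (8.59 ± 0.627) and Cacnb2 (3.25 ± 0.242 CPM per kb). Cacnb4 (ENSMUSG00000017412, mm10 chromosome 2, 52428320 to 52676831, minus strand) had 70.9 to 87.4 CPM in control (median 75.4 CPM) and 57.5, 61.8, 67.3, 74.4 and 61.2 CPM in hypoxia 1 to 5. Only hypoxia 4 overlapped the control range. The mean fell from 77.0 ± 5.62 CPM to 64.4 ± 6.58 CPM, a log2 fold change of -0.25 (SE 0.06, edgeR adjusted p = 0.00793).

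Cacnb2 (ENSMUSG00000057914, mm10 chromosome 2, 14603088 to 14987908, plus strand), the β subunit of cardiac L-type channels, had 38.8 to 46.8 CPM in control (median 43.3 CPM) and 49.2, 49.0, 51.7, 47.9 and 44.4 CPM in hypoxia 1 to 5. Its 4 highest libraries were hypoxia libraries, and hypoxia 5 fell within the control range. Cacnb2 rose from 43.0 ± 3.20 CPM to 48.5 ± 2.64 CPM, a log2 fold change of 0.17 (SE 0.05, edgeR adjusted p = 0.0264). This call was lost without control 6 (adjusted p = 0.0528) and without hypoxia 1, 2 or 3 (adjusted p = 0.0546, 0.0547 and 0.0713). The count ratio of Cacnb4 to Cacnb2 was 1.70 to 1.93 in control and 1.17 to 1.55 in hypoxia, without overlap. It was chosen after its values were seen and is given without a test. Cacnb3 had 96.4 to 124 CPM in control (median 114 CPM) and 115, 102, 106, 103 and 104 CPM in hypoxia 1 to 5 (log2 fold change -0.07, edgeR adjusted p = 0.373), with overlapping groups.

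The exons of Cacnb4 overlap those of A430018G15Rik on the opposite strand over 16.0% of their length, a gene with 0 to 4 counts per library. Those of Cacnb2 overlap the opposite-strand Gm10848, Gm10849 and Gm13269 over 7.32%, of which Gm10849 had no count in any library and the other two had 0 to 3. Whether the counting used strand is not given in the sources used here, so that reads in the shared stretches cannot be assigned to 1 strand.

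**Figure D2:**
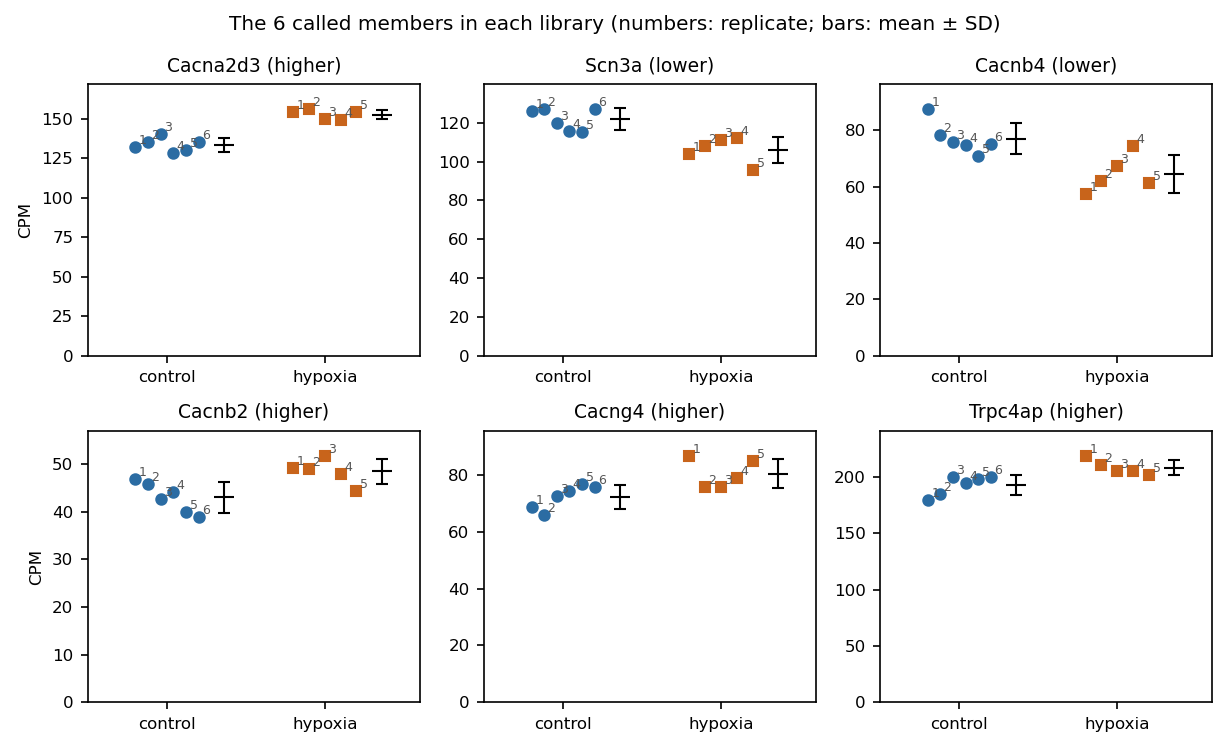
CPM of the 6 called genes in each library, labelled by replicate number, with the group mean and SD as bars. All hypoxia libraries of Cacna2d3 and Trpc4ap lie above the controls and all of Scn3a below them, while those of Cacnb2, Cacnb4 and Cacng4 overlap.

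Among the 5 tested γ genes, 1 was higher. Cacng7 had the highest level per exon length in control, at 34.9 ± 3.39 CPM per kb, followed by Cacng4 (20.2 ± 1.20), Cacng5 (7.10 ± 0.419), Cacng2, known as stargazin (6.67 ± 0.534), and Cacng3 (3.92 ± 0.425 CPM per kb). Cacng5 and Cacng2 differed by less than the SD of Cacng2. Cacng4 (ENSMUSG00000020723, mm10 chromosome 11, 107732357 to 107794557, minus strand), an auxiliary subunit of AMPA receptors, had 65.7 to 76.6 CPM in control (median 73.4 CPM) and 86.7, 75.7, 75.7, 78.9 and 84.7 CPM in hypoxia 1 to 5. The groups overlapped at hypoxia 2 and 3. Its log2 fold change was 0.15 (SE 0.05, edgeR adjusted p = 0.0346), and the call was lost without control 1 or 3 and without hypoxia 1, 4 or 5 (adjusted p = 0.0519 to 0.0957).

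Cacng5, 80.0 kb from Cacng4, was not called (log2 fold change 0.02, edgeR adjusted p = 0.901). The count ratio of Cacng4 to Cacng5 was 2.31 to 2.89 in control and 2.60 to 3.30 in hypoxia, overlapping. Cacng7 had 71.4 to 93.4 CPM in control (median 87.1 CPM) and 85.4, 80.4, 76.0, 79.6 and 92.4 CPM in hypoxia 1 to 5, all within the control range (log2 fold change -0.04, edgeR adjusted p = 0.673).

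The 4 HCN genes gave no call. Hcn2 had the highest level per exon length (16.4 ± 1.72 CPM per kb in control), Hcn3 was at 11.6 ± 1.53 CPM per kb and Hcn4 at 2.58 ± 0.399 CPM per kb. Hcn4, the slow-gating isoform of sinus node and thalamus, had 13.0 to 19.1 CPM in control (median 16.1 CPM) and 12.3, 11.2, 14.2, 13.5 and 15.0 CPM in hypoxia 1 to 5. Hypoxia 1 and 2 lay below all controls. The log2 fold change was -0.26 (SE 0.10, edgeR adjusted p = 0.0808), and it passed the test without control 1, control 2 or hypoxia 5 (adjusted p = 0.0328, 0.0396 and 0.0477).

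Of the 18 TRP-named genes tested, 1 was called, and it was Trpc4ap. Trpc4ap (ENSMUSG00000038324, mm10 chromosome 2, 155634271 to 155692384, minus strand), which is also known as a substrate receptor of a ubiquitin ligase, had 180 to 200 CPM in control (median 196 CPM) and 219, 211, 205, 205 and 202 CPM in hypoxia 1 to 5. Every hypoxia library was above every control library, the nearest being hypoxia 5 at 202 CPM and the highest controls at 200 CPM. Its log2 fold change was 0.11 (SE 0.04, edgeR adjusted p = 0.0370), and 8 of 16 alternative settings lost the call, among them the test with the replicate number as a block (adjusted p = 0.0890) and the fit without control 1 (adjusted p = 0.0541).

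The summed CPM of the TRPC genes was 302 to 312 in control and 318 to 334 in hypoxia, without overlap, and Trpc4ap supplies most of it. Without Trpc4ap the sums were 107 to 122 CPM in control and 114 to 122 CPM in hypoxia, with overlapping groups. Trpc1, a subunit of receptor-operated channels, had the highest level per exon length of the TRPC channels, at 7.24 ± 0.412 CPM per kb in control. Its edgeR adjusted p was 0.843.

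Trpm7, a channel joined to a kinase domain that conducts magnesium and calcium, was the most abundant TRPM gene, with 69.0 to 90.6 CPM in control (median 74.5 CPM) and 63.4, 70.3, 71.2, 72.6 and 55.4 CPM in hypoxia 1 to 5. Only hypoxia 1 and 5 lay below all controls. Its log2 fold change of -0.20 (SE 0.07) did not pass the test (edgeR adjusted p = 0.0592), and 4 of 16 alternative settings put it past the threshold, among them the fits without control 5 (adjusted p = 0.0460) and without hypoxia 4 (adjusted p = 0.0421). Trpv2, the most abundant TRPV gene, had 23.5 to 27.7 CPM in control (median 26.4 CPM) and 25.3, 25.5, 25.2, 26.7 and 30.2 CPM in hypoxia 1 to 5 (log2 fold change 0.02, edgeR adjusted p = 0.843). Trpv1, the capsaicin receptor, had a mean of 0.476 CPM in control and 0.328 CPM in hypoxia (edgeR adjusted p = 0.319).

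**Figure D3:**
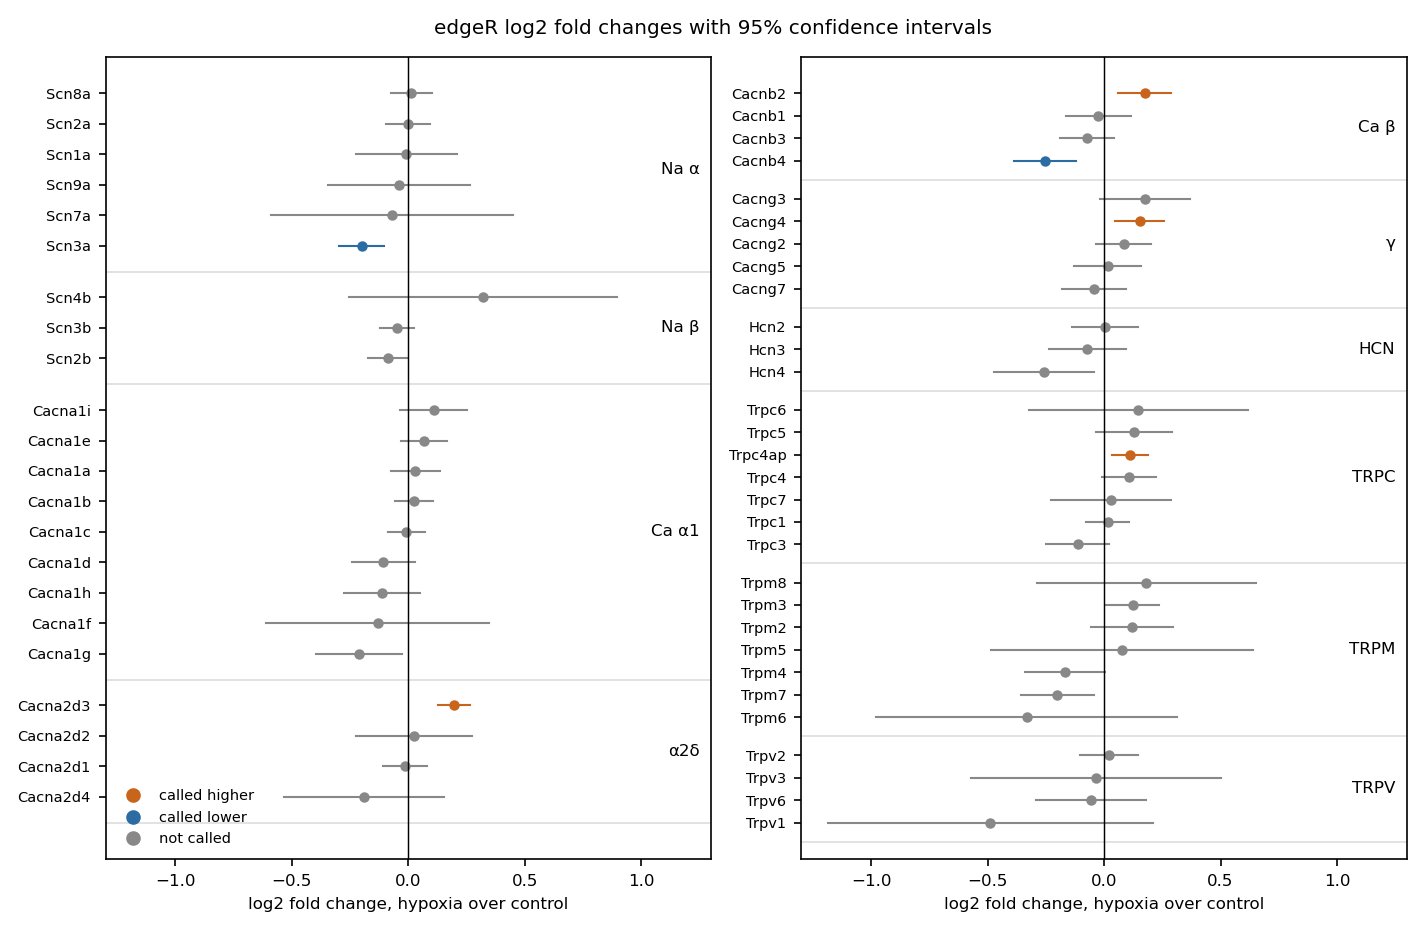
Log2 fold change of hypoxia over control with its 95% interval for 52 of the 55 tested genes, by family, with called genes in orange (higher) and blue (lower). The intervals of most genes drawn include 0, and the widest, that of Trpv1, belongs to a gene under 1 CPM.

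The median log2 fold change of the 55 genes was -0.01, against -0.02 over all 16319 genes tested, and their median absolute log2 fold change was 0.09, against 0.12. A change of less than 1.25-fold in either direction was measured for 96.4% of the 55 genes and for 84.4% of all genes tested. The 55 genes were also more abundant, with a median of 44.4 CPM against 16.2 CPM, and these comparisons do not allow for that. Of the 55 genes, 39 had a mean of at least 10 CPM, and 15.4% of these 39 were called, against 28.5% of the 9493 genes of at least 10 CPM. At this level the median absolute log2 fold changes were close, at 0.0882 for the 39 and 0.0858 for the 9493. A change of less than 1.25-fold was measured for 100% and 94.0% of them. Of the 33 genes of at least 10 CPM that were not called, 29 had a 95% interval within 1.25-fold in both directions and all 33 had one within 1.5-fold (bounds from -0.47 to 0.37 on the log2 scale). The remaining 16 tested genes were under 10 CPM, 9 of them under 1 CPM. Summed over all 65 genes, the level was 4187 ± 67.3 CPM in control and 4187 ± 91.7 CPM in hypoxia. Across the 55 genes the log2 fold change had a Spearman correlation of 0.298 with log10 gene span and of 0.066 with log10 mean CPM. Both are descriptions across genes of the same 11 libraries.

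**Figure D4:**
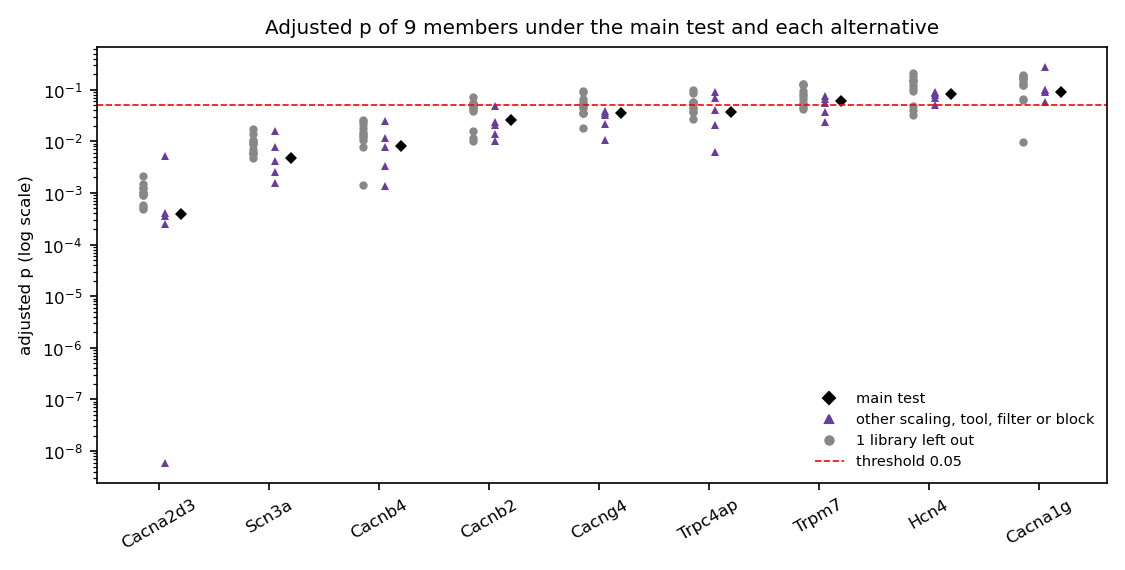
Adjusted p of 9 genes in the test as reported (diamond), in other settings (triangles) and with each library left out (circles), with the threshold of 0.05 as a dashed line. Cacna2d3, Scn3a and Cacnb4 lie under the line in all settings, and the other 6 genes have settings on both sides.

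The calls of Cacna2d3, Scn3a and Cacnb4 were made in all 16 alternative settings. The call on Cacna2d3 had an adjusted p from 5.92e-09 to 0.00512 over them, that on Scn3a from 0.00153 to 0.0174 and that on Cacnb4 from 0.00137 to 0.0255. The authors' deposited tables list 9 of the 65 genes, 6 as higher and 3 as lower. The 6 genes called here are among them, and the authors' tables add Cacna1i (log2 fold change 0.15, adjusted p = 0.0413), Cacng3 (0.23, 0.0281) and Trpm7 (-0.21, 0.00207). In the edgeR test these had adjusted p values of 0.280, 0.190 and 0.0592. The DESeq2 Wald test run here also called only the same 6 genes, with Trpm7 at an adjusted p of 0.0655. Why the authors' tables list more was not tested.

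Of 43 genes for proteins that assemble with or regulate these channels, or are related channels, 39 were tested, and 5 were higher and 1 was lower (15.4%), against the same 23.0% of all genes tested. The median log2 fold change of the 39 was 0.01. The authors' deposited tables list 10 of the 43 as higher, among them the 5 called here, and 1 as lower. That 1 is Cabp1 (authors' log2 fold change -0.20), and Rrad, the lower gene here, is in neither table. Orai2, a pore subunit of store-operated calcium entry, had 75.0 to 80.6 CPM in control (median 78.4 CPM) and 87.1, 83.9, 89.4, 88.2 and 85.0 CPM in hypoxia 1 to 5, without overlap, with a log2 fold change of 0.15 (SE 0.03, edgeR adjusted p = 0.00508). Rims2, an active zone protein that tethers calcium channels, had 25.9 to 31.9 CPM in control (median 29.2 CPM) and 33.8, 36.3, 36.3, 32.9 and 31.9 CPM in hypoxia 1 to 5, the ranges meeting at 31.9 CPM (log2 fold change 0.23, edgeR adjusted p = 0.00618). Unc79, an auxiliary subunit of the sodium leak channel NALCN, had 80.3 to 89.0 CPM in control (median 85.7 CPM) and 100, 106, 102, 96.8 and 85.8 CPM in hypoxia 1 to 5 (log2 fold change 0.21, edgeR adjusted p = 0.00656). Hypoxia 5 alone lay inside the control range of Unc79. Gem, a small GTPase that binds calcium channel β subunits, had 2.94 to 3.97 CPM in control (median 3.59 CPM) and 4.36, 5.55, 4.15, 4.49 and 6.97 CPM in hypoxia 1 to 5, without overlap (log2 fold change 0.53, edgeR adjusted p = 0.00813). Ank2, an ankyrin that anchors membrane proteins, was also higher (log2 fold change 0.13, edgeR adjusted p = 0.0286), a call lost without control 3 or 4 and without hypoxia 2, 3 or 4 (adjusted p = 0.0510 to 0.0850).

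The lower gene, Rrad, encodes another GTPase of the family of Gem. It had 5, 10, 13, 12, 11 and 10 raw counts in control 1 to 6 and 2, 3, 0, 1 and 5 in hypoxia 1 to 5. The log2 fold change was -2.09 (SE 0.39, edgeR adjusted p = 0.000987). Since it passed the filter through the 5 control libraries with 10 or more counts, a difference in that direction was built into its selection. It did not reach the filter of the filterByExpr setting or of the fits that left out control 2, 3, 4, 5 or 6.

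The cell composition of the cultures was checked with marker lists. The neuronal markers Map2 and Snap25 stood at 2480 ± 104 and 798 ± 44.3 CPM in control, and the astrocyte markers summed to 3190 ± 126 CPM, so the libraries hold RNA of glia as well as neurons. In these mixed libraries fewer cells of a type and less RNA per cell cannot be told apart. The 8 oligodendrocyte lineage markers summed to 111 to 142 CPM in control and 93.1 to 111 CPM in hypoxia, with 3 of the 8 lower (Olig1, Olig2 and Mog), and none of their values was 0 in all libraries. Of the 7 excitatory neuron markers 2 were higher (Tbr1 and Neurod6, log2 fold changes 0.18 and 0.13), of 8 interneuron markers 1 was higher (Lhx6, 0.14), and of 7 astrocyte markers 1 was lower (Aqp4, -0.20). Over the whole lists, the median log2 fold change was 0.06 for the excitatory, -0.10 for the interneuron (6 of 8 negative) and 0.01 for the astrocyte markers (4 of 7 positive), and the astrocyte sum was 3189 ± 104 CPM in hypoxia. Of the choroid plexus and ependyma markers 1 was lower (Foxj1, -0.32), and of the all-neuron, microglial, endothelial and fibroblast markers none was called. The summed microglial markers were 16.0 to 18.5 CPM in control and 16.0 to 19.1 CPM in hypoxia. The part of cell composition in the differences of Scn3a, Cacnb4, Cacna2d3 and the other channel genes was not tested.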

How the data were processed

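RNA was measured in 6 control and 5 hypoxia libraries. STAR 2.5.2b, Subread 1.5.1 with featureCounts, FastQC 0.11.5, DESeq2 and the build mm10 are named, per the submitters' processing notes. Not given in the sources used here are the annotation release and how strand and multi-mapping reads were handled, which affect overlapping genes and paralogs. The authors deposited 1 table of raw counts per library and 2 tables of called genes, which hold log2 fold changes, adjusted p-values and, per the file headers, a signal per library. From its values, that deposited signal is the count divided by 1 size factor per library.

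The counts were analysed with edgeR 4.0.16 in R 4.3.3 (TMM normalization, quasi-likelihood F test, no covariate) on genes with at least 10 counts in at least 5 libraries, 2-sided, with Benjamini-Hochberg adjustment over all genes tested and a threshold of 0.05. CPM uses TMM-scaled library totals. CPM per kb divides by all annotated exon bases of a gene, not by the length of the expressed transcript. Levels per kb and shares of a family therefore depend on the annotated exons. The test was checked on simulated data. That check required recovery only of changes larger than those called here among the channel genes, so it does not bear on calls of their size. Gene models and exon lengths come from GENCODE M21 (the build mm10), which holds 48349 of the 48709 gene IDs, and upstream windows from RefSeq GRCm38.p6. The genes described and the lists of partners and markers were chosen with earlier results of these data known. By the rule for named genes, values by library were given for all called genes, the most abundant gene of each of the 10 families by mean CPM, and the 3 uncalled genes with the smallest p, with the 5 called partners of smallest p. Some genes that the rule or the families include are not reported here. Alternatives were DESeq2 size factors, DESeq2 1.42.0, filterByExpr, no filter beyond 1 count, the replicate number as a block and each library left out. No set test was run. Column and group assignments follow the sample titles. Total counts of 16619493 to 31917157 limit the precision for genes under 1 CPM.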

Additional observations from a re-analysis of the deposited data

Results flagged for a closer look

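In each group of libraries, the highest or lowest value of each of the 46 genes with a mean of at least 1 CPM, and of each family sum, was compared with the other values by Dixon's criterion, in which chance marks about 1 in 20 groups. Of 112 groups searched, 8 had a library that stood apart. In control 1, the library with the fewest counts, Scn2a was at 527 CPM against at most 478 CPM in the other controls, Cacna2d1 at 239 CPM against at most 214 CPM, the α2δ sum at 377 CPM against at most 357 CPM, and Cacna2d2 was low at 3.96 CPM against at least 5.98 CPM. Trpc5 was high in control 2 (18.4 CPM) and Trpv6 in control 4 (3.74 CPM). Cacna2d4 was low in hypoxia 1 (1.28 CPM) and the HCN sum in hypoxia 2 (190 CPM). None of these genes was called, and the causes were not tested.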

How the results depend on the processing

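The labels do not say whether the replicate number pairs the libraries, and correlations between libraries cannot settle it. Deviations of same-numbered control and hypoxia libraries correlated at -0.096 to 0.305, and 2 of 5 hypoxia libraries correlated best with the control of the same number. With the replicate number as a block, control 6 adds nothing to the group difference, since no hypoxia library has its number. With this block, 2955 of all genes were called in place of 3751, and 6 of the 55 channel genes, of which 5 were called without the block. Trpc4ap was lost (log2 fold change 0.12, adjusted p = 0.0890) and Trpm7 gained (-0.22, adjusted p = 0.0374). The block gave 2 lower partners in place of 1, DESeq2 gave 9 higher partners in place of 5, and filterByExpr gave 0 lower partners. With each library left out, the number of channel genes called ranged from 1 to 5 higher and 2 to 4 lower, and that of the partners from 4 to 7 higher and 0 to 3 lower. The higher count fell to 2 without control 1, hypoxia 2, 3 or 4 and to 1 without hypoxia 1, and the lower count rose to 4 without control 1 or hypoxia 5. Without a filter beyond 1 count, Trpc4ap was lost (adjusted p = 0.0678) and Trpm7 gained (0.0236). Further gains came with Scn2b (without hypoxia 5, 0.0339) and Trpm3 (without control 2, 0.0378). The near-zero log2 fold change of Scn2a turned from -0.0023 to 0.0091 with DESeq2 size factors, 0.0092 with DESeq2 and 0.0078 without a filter, and lay between -0.0204 and 0.0274 with each library left out. That of Cacna2d1 lay between -0.0392 and 0.0149, and that of Trpv2 between -0.0344 and 0.0456. Calls of Cacna2d3, Scn3a and Cacnb4 kept their direction and side of the threshold in all 16 settings, and all 120 alternative values of the family sums moved by less than 1 SD. The cause of the lost and gained calls was not tested. Depth limits the genes under 1 CPM.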
